A study of Drosophila melanogaster with 63 samples.

Results

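Nop56, Fib, Nop60B, NHP2, Mat89Ba, mod and Non1 are 7 Drosophila melanogaster genes of ribosome assembly in the nucleolus, out of 9212 genes measured. They were taken by symbol, and they had been picked from their log2 ratios in these same arrays, so every level below is a description of how the chosen genes behaved and no test is attached to it. Non1 was set against the other 6 in the choice itself.

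Ribosomes are built in the nucleolus, where RNA polymerase I makes a long precursor of ribosomal RNA that is modified, folded and cut while ribosomal proteins are added. Small nucleolar RNA-protein particles modify the precursor: the box C/D kind methylates riboses and the box H/ACA kind converts uridine to pseudouridine. Further assembly factors then carry the small and the large subunit towards the cytoplasm, and in growing animals these genes are widely known as targets of nutrient signalling and of the transcription factor Myc.

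The arrays compared RNA of treated and control OregonR animals, a wild-type strain, in 2 dye channels. Adults were held at 25 °C on filter paper soaked in PBS alone (starved) or in PBS with 20% sucrose (sugar), against flies given yeast paste on PBS paper. Starved females were sampled at 48 h and 24 h, starved males at 24 h, and both sexes on sugar at 48 h and 24 h. Larvae kept at 25 °C on apple juice agar with yeast were taken at 52, 64, 76, 88 and 100 h after egg laying, each set against larvae of 40 h. The labels give neither the age of the adults nor the number of animals pooled.

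There were 63 arrays, 38 of adults and 25 of larvae, with 4 to 6 arrays in each of the 12 groups. All arrays of a group carry 1 merged value per spot, so a group is 1 measurement per gene, and neither a standard deviation nor a p-value can be given. Each of the 7 genes is represented by 1 clone, whose 2 spots also hold a single value. As a rough measure of technical error, the genes with exactly 2 clones were used: in 95% of them the 2 clones differed by less than 0.36 to 0.78 on the log2 scale in adult groups and by less than 0.62 to 1.09 in larval groups. This limit, called the clone limit below, does not cover differences between animals. The share of all genes past it was not computed, so nothing is read from counts of genes past it. A gene is counted as higher or lower where its ratio is at least 2-fold from the control, which is 1 on the log2 scale.

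The ratios most likely run treated over control, although the labels do not state it. They put the control RNA in either channel, swapped between arrays of a group, and the arrays of a group nevertheless hold 1 value with 1 sign. Lsp2 (a storage protein gene switched on in late larvae) had log2 ratios of 3.28, 2.15, 6.09, 8.52 and 8.26 from 52 to 100 h. If the sign ran the other way, every direction below would turn. The median over all genes lay between -0.03 and 0.02 in every group, so the deposited ratios are centred near 0. The labels speak of flies and larvae and name no tissue, and in whole animals fewer cells of a type and less RNA per cell cannot be told apart.

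In larvae, the 6 genes other than Non1 were progressively lower with age. Their median log2 ratio was -0.47 at 52 h, -0.70 at 64 h, -1.42 at 76 h, -2.07 at 88 h and -2.68 at 100 h, which is 72.1%, 61.5%, 37.4%, 23.8% and 15.6% of the level in 40 h larvae. At 100 h that was 6.42-fold below the control. The 6 genes lay close together at 88 h, where the whole set spanned 0.31 on the log2 scale, under the clone limit of 0.91. At 100 h they spanned 1.06, again under the limit of 1.09, so their order at that age is not resolved.

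**Figure D1:**
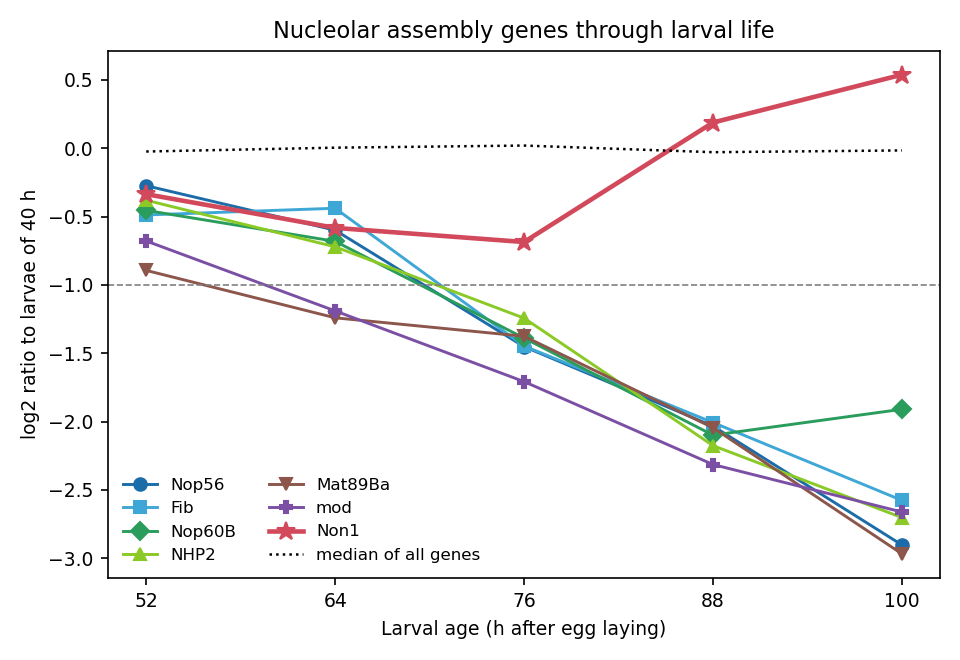
Log2 ratio of each gene to 40 h larvae (vertical axis) against larval age in hours after egg laying (horizontal axis), 1 value per gene and age. All 6 genes other than Non1 lie at or below -1.91 at 100 h, while Non1 lies at 0.54.

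The 2-fold count stood at 0 of 7 for 52 h larvae, where 1.8% of all genes were at least 2-fold below the control. At 64 h the count was 2 (Mat89Ba and mod), against 0.185% of all genes. It was 6 at 76 h, with 2.81% of all genes, 6 at 88 h, with 4.23%, and 6 at 100 h, with 6.77%. The choice of the genes used these ratios, so nothing is read from the size of these counts. Past the clone limit lay 2 of the 6 at 52 h, 4 at 64 h and all 6 from 76 h on, with no share of all genes to set beside them.

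The box C/D particle was represented by Nop56, a scaffold of the particle, and Fib, fibrillarin, the methyltransferase. Nop56 had log2 ratios of -0.27, -0.60, -1.45, -2.03 and -2.90 from 52 to 100 h, the last being 13.4% of the control. Fib had -0.49, -0.44, -1.45, -2.01 and -2.58. Their values lay close to each other from 76 h on, and Fib took its largest step between 76 h and 64 h, with a ratio difference of -1.01 against a clone limit of 0.66. Between these ages, 2.74% of all genes were at least 2-fold apart, Fib among the 7 alone.

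The box H/ACA particle was represented by Nop60B, the pseudouridine synthase (dyskerin in mammals, and the gene of the minifly mutants), and by NHP2, a structural subunit. Nop60B had log2 ratios of -0.46, -0.68, -1.39, -2.10 and -1.91. It was the only one of the 6 whose ratio at 100 h was not below that at 88 h, but the difference, 0.19, is under the clone limit of 0.85. NHP2 had -0.38, -0.72, -1.24, -2.18 and -2.70.

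Mat89Ba, related to human NOL6 and yeast Utp22 of the small subunit processome, had log2 ratios of -0.89, -1.24, -1.38, -2.05 and -2.97. It was already the lowest of the 6 at 52 h, and at 64 h it ranked 10 from the lowest of all genes. The gene mod (modulo), which codes for a nucleic-acid binding protein of the nucleolus and was found as a target of Myc, had -0.68, -1.19, -1.71, -2.31 and -2.66. These were the 2 genes past 2-fold at 64 h, the age at which 17 genes of all those measured were at least 2-fold lower.

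Non1, related to the yeast GTPase Nog1 of the large subunit path, did not follow this course. Its log2 ratios were -0.34, -0.58, -0.69, 0.19 and 0.54, or 79.2%, 66.8%, 62.1%, 114% and 145% of the 40 h level. All of these lay within the clone limits, which were 0.91 at 88 h and 1.09 at 100 h. A rise of Non1 above the 40 h level is therefore not resolved. It tracked the 6 at 52 and 64 h, where its ratio exceeded their median by 0.14 and 0.12. The gap was 0.73 at 76 h, 2.26 at 88 h and 3.22 at 100 h. Between 88 h and 76 h its ratio differed by 0.87, past the clone limit of 0.63, in the opposite direction to the other 6, which differed by -0.56 to -0.93.

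The larval steps of the other genes can be read the same way. From 52 to 64 h no gene of the 7 passed the clone limit of 0.68. From 64 to 76 h Fib, Nop56 and Nop60B passed it, with ratio differences of -1.01, -0.85 and -0.71. From 76 to 88 h Mat89Ba, NHP2 and Nop60B passed it with -0.67, -0.93 and -0.71, and from 88 to 100 h Mat89Ba and Nop56 did with -0.92 and -0.87.

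Other genes of the pathway, listed by role, were lower too but by less. Of 94 such genes, 75 were measured. Their median log2 ratio was -0.21, -0.37, -0.62, -0.93 and -0.91 from 52 to 100 h, and the number past 2-fold on the low side was 0, 0, 15, 36 and 27 of the 75. The ratio was below 0 in 64, 71, 73, 73 and 72 of them. At 100 h 36% were at least 2-fold lower, against 6.77% of all genes. No gene of the 75 lay below the lowest of the 6 at any larval age.

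**Figure D2:**
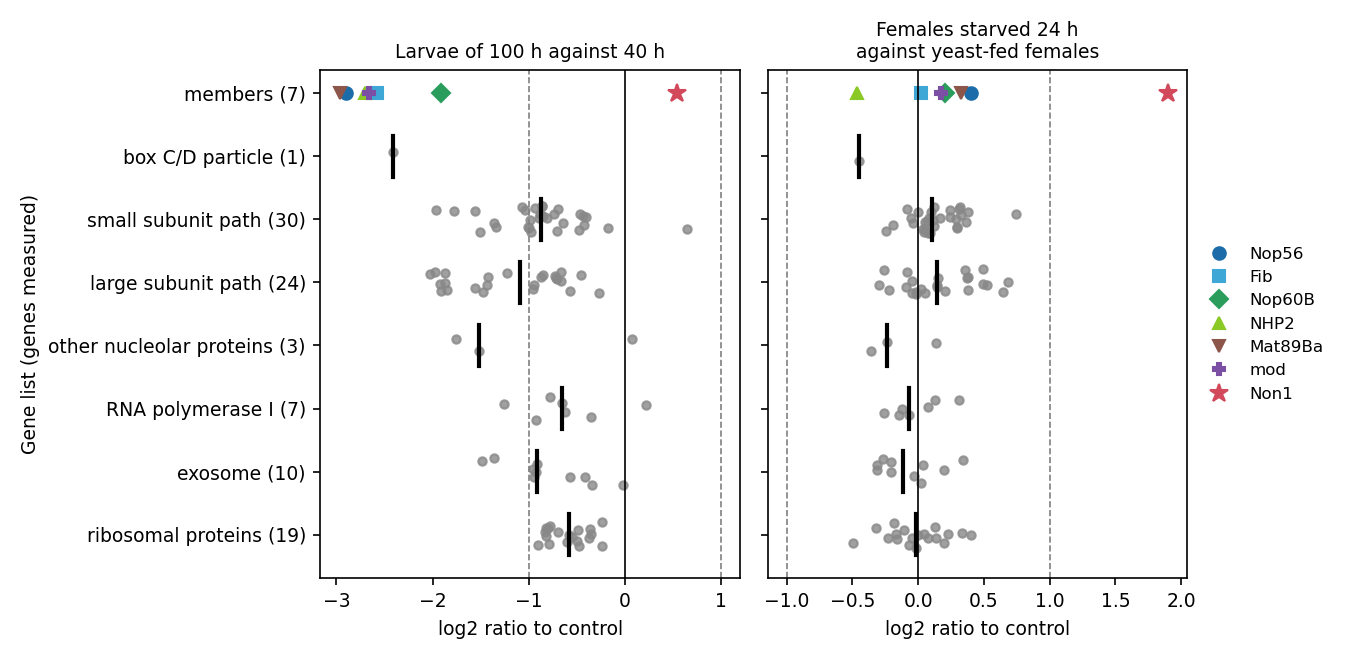
Log2 ratio to the control (horizontal axis) by gene list (vertical axis, with the number of genes measured), in larvae of 100 h against 40 h larvae (left) and in females starved for 24 h against yeast-fed females (right). Grey points are genes, black bars are list medians, dashed lines mark 2-fold, and coloured markers are the 7 genes, of which 5 lie below every listed gene at 100 h and Non1 lies far right in starved females.

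hoip was the listed gene nearest to the 6. It codes for the protein that binds the k-turn of box C/D RNAs, and it was the only measured partner of Nop56 and Fib in that list. Its log2 ratios were -0.37, -0.79, -1.36, -2.15 and -2.41. At 88 h it was the single gene of the 75 below the highest of the 6, and at 100 h it was 1 of 5.

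The list of the small subunit path (30 genes measured) had a median log2 ratio of -0.87 at 100 h, with 9 genes at least 2-fold lower. CG6712 and CG11920 had the lowest larval means of this list, -1.21 and -1.13, and CG2260 and CG12325 the highest, 0.14 and -0.03. bys, the bystin gene, had -1.69 at 88 h and -1.50 at 100 h, while kz, a DEAH-box helicase, had -0.66 and -0.48. The members of this list were thus spread over a wide range in the same RNA.

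The list of the large subunit path (24 genes) had a median of -1.09 at 100 h and 12 genes at least 2-fold lower. This is the list to which Non1 belongs by role. All 24 of its other measured genes had ratios below 0 at 88 and 100 h. Non1 was then above 0, though within the clone limits. The list was written by hand and may leave out genes of this path. Surf6 and CG5033 had the lowest larval means, -1.31 and -1.17, and Sbds and CG3817 the highest, -0.25 and -0.19. pit, a DEAD-box helicase, was the lowest of the list at 100 h with -2.02.

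RNA polymerase I makes the precursor and the nuclear exosome trims it. Of 7 RNA polymerase I genes 1 was at least 2-fold lower at 100 h, with a list median of -0.66, Polr1E lowest at -1.25 and udd highest at 0.22. Of 10 exosome genes 2 were, with a median of -0.92, Mtr3 lowest at -1.49 and Mtr4 highest at -0.02. Nph and Nlp, nucleolar histone chaperones of the nucleophosmin and nucleoplasmin kind, had larval means of -1.06 and -0.97. None of the 19 measured ribosomal protein genes was at least 2-fold lower at any larval age. The share of all genes ran from 0.185% to 6.77% over these ages, so nothing is read from that count. At 100 h all 19 had ratios below 0, with a median of -0.58. Only 19 of 86 ribosomal protein genes were measured.

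By their medians, marker genes of other tissues were nearer to the control than the 6 genes. Eggshell and accessory gland genes mark adult tissues, so their ratios in larvae cannot show how a larval tissue changed. The muscle median was 0.69 at 88 h. At 100 h the median log2 ratio was -0.14 for 11 muscle genes, -0.34 for 13 eggshell genes and -0.15 for 12 germline genes. For 10 testis and accessory gland genes it was 0.46, and 3 of them were at least 2-fold higher: dj at 2.24, Mst98Cb at 1.85 and Mst84Db at 1.81. That median joins 2 tissues with unlike values. The accessory gland genes Acp26Aa, SP, Acp36DE and Acp62F had -0.63, -0.20, -0.06 and 0.01, and the testis genes 0.17 to 2.24. The part of these marker genes in the larval values was not tested.

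In adults, the 6 genes stayed near their controls while Non1 was higher. The median of the 6 was 0.04 in females starved for 48 h, 0.19 in those starved for 24 h and 0.08 in males starved for 24 h. On sugar it was 0.10 (48 h) and -0.01 (24 h) in females, and 0.23 (48 h) and 0.03 (24 h) in males. None of the 6 was 2-fold from the control in any adult group in either direction.

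**Figure D3:**
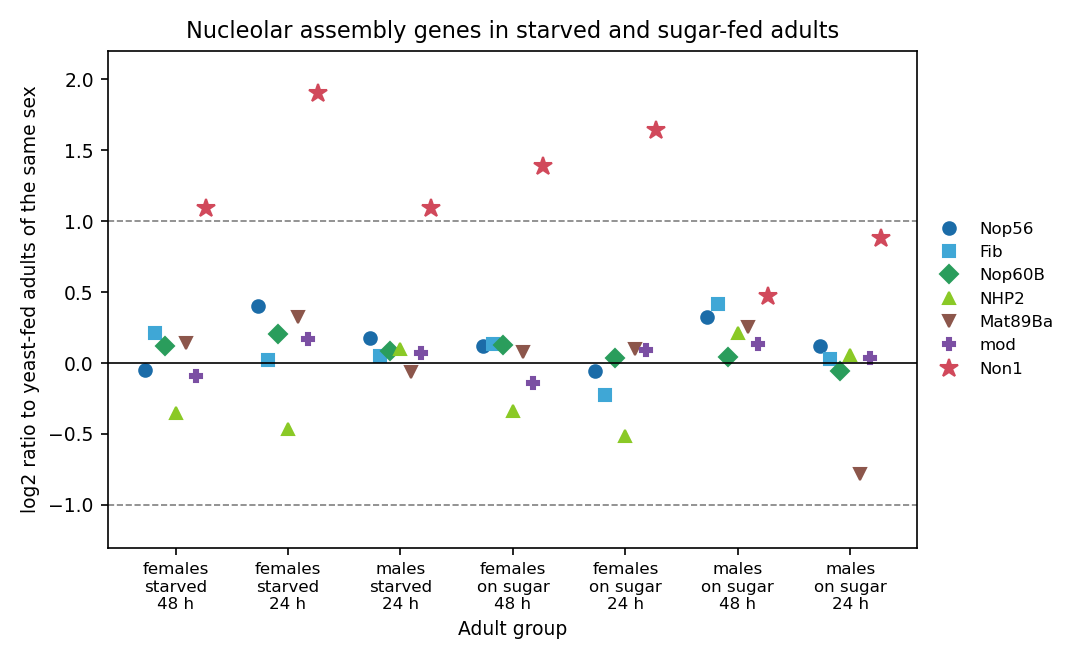
Log2 ratio of each gene to yeast-fed controls (vertical axis) in the 7 adult groups (horizontal axis), 1 value per gene and group. Non1 ranges from 0.47 to 1.90 and lies above the other 6 genes in every group.

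Non1 had log2 ratios of 1.09 in females starved for 48 h, 1.90 in females starved for 24 h and 1.09 in males starved for 24 h. On sugar it had 1.39 (48 h) and 1.65 (24 h) in females, and 0.47 (48 h) and 0.88 (24 h) in males. These are 213%, 374%, 213%, 262%, 313%, 139% and 184% of the level in yeast-fed flies. Non1 was above the median of the 6 by 0.24 in males on sugar for 48 h and by 0.85 to 1.71 in the other groups. It was past the clone limit in 6 of the 7 groups, males on sugar for 48 h being the exception with 0.47 against 0.50.

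By the 2-fold count, Non1 alone of the 7 genes was higher in females starved for 48 h, where 1.24% of all genes were, and for 24 h, with 0.283%. The same held in starved males, with 0.0218%. There Non1 was 1 of 2 genes in the whole table. In females on sugar it was again the only one of the 7, against 1.7% of all genes at 48 h and 0.391% at 24 h. Of the 7 genes, 0 were higher in males on sugar, against 0.206% at 48 h and 0.109% at 24 h. Since Non1 was singled out on these values, nothing is read from the counts.

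No gene of the 7 was at least 2-fold lower in an adult group. The share of all genes that were was 0.727% in females starved for 48 h, 0.893% in females starved for 24 h and 0.566% in starved males. On sugar it was 1.26% (48 h) and 1.12% (24 h) in females, and 1.83% (48 h) and 1.13% (24 h) in males. Among the 6, NHP2 in females on sugar for 24 h (-0.52, limit 0.50) and Mat89Ba in males on sugar for 24 h (-0.78, limit 0.37) were past the clone limit.

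Among the genes of the box C/D particle, Nop56 had log2 ratios of -0.05, 0.40 and 0.18 in females starved for 48 h, females starved for 24 h and males starved for 24 h. On sugar it had 0.12 (48 h) and -0.06 (24 h) in females, and 0.33 (48 h) and 0.12 (24 h) in males. Fib had 0.21, 0.02 and 0.05 in the same 3 starved groups, and on sugar 0.14 (48 h) and -0.22 (24 h) in females, with 0.42 (48 h) and 0.03 (24 h) in males. Both genes thus had their values within the clone limits in every adult group, and males on sugar for 48 h were the highest group for Fib.

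Nop60B was the steadiest of the 7 genes, with a range from -0.06 to 0.21 over the adult groups, and mod came next with -0.14 to 0.17. Mat89Ba had 0.14, 0.33 and -0.06 in females starved for 48 h, females starved for 24 h and starved males. On sugar its values were 0.07 (48 h) and 0.10 (24 h) for females, with 0.25 (48 h) and -0.78 (24 h) for males. Its value in males on sugar for 24 h therefore stands apart from its other 6, which span -0.06 to 0.33, and its female minus male difference on sugar at 24 h was 0.88, past the clone limit of 0.50.

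NHP2 had lower ratios in the female than in the male groups, mostly within the clone limits. Its log2 ratios were -0.35, -0.46, -0.34 and -0.52 in the female groups (starved 48 h, starved 24 h, sugar 48 h, sugar 24 h) and 0.10, 0.21 and 0.05 in the male groups (starved 24 h, sugar 48 h, sugar 24 h). Every female value was below every male value, but how many of all genes were split in this way was not counted. The female minus male difference was -0.56 under starvation at 24 h, -0.57 on sugar at 24 h and -0.55 on sugar at 48 h, and only the one on sugar at 24 h passed its clone limit, 0.50. hoip had a like pattern, with -0.66, -0.45, -0.58 and -0.52 in the same female groups and 0.02, 0.31 and -0.04 in the same male groups. The pattern is not particular to genes of these particles. Ski6 and Mtr3 of the exosome and CG4866 of the small subunit path had it too, while other listed genes, such as Rrp6, did not.

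Non1 differed by sex in the other direction. Its female minus male difference was 0.81 under starvation at 24 h, 0.77 on sugar at 24 h and 0.92 on sugar at 48 h. All 3 passed their clone limits of 0.58, 0.50 and 0.86. Beside these, each of the 13 measured eggshell genes was at least 2-fold below its control in all 4 female groups, with medians of -3.23, -2.28, -2.83 and -2.93. Of all genes, 0.727% to 1.26% were that low in the female groups. In males none of the 13 was, with medians from -0.03 to 0.12. Males make no eggshell and females have no testis or accessory gland. Values of those genes in the sex without the tissue could therefore show no change of it. Muscle genes had medians of 0.89, 0.46, 1.02 and 0.50 in the female groups and -0.00 to 0.04 in the male groups, and the 12 germline genes had medians from -0.17 to 0.18 in the adult groups. The 10 testis and accessory gland genes had medians from -0.13 to -0.00 in the female groups and 0.26 to 0.27 in the male groups. In starved males the accessory gland genes Acp26Aa, Acp36DE, Acp62F and SP had -0.69, -1.07, -0.71 and -0.25. The testis genes had 0.21 to 0.59 there. The part of all these marker genes in the sex differences was not tested.

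Between the diets, the differences for Non1 lay within the clone limits. Starved minus sugar, the ratio of Non1 differed by 0.26 for 24 h females, -0.30 for 48 h females and 0.21 for 24 h males, against limits of 0.43, 0.57 and 0.42. Nop56 in females at 24 h (0.46) and Mat89Ba in males at 24 h (0.72) passed them. No gene of the 7 was 2-fold apart between diets, and the share of all genes that were was not computed. The comparisons share their yeast-fed control only by description, and whether the same control RNA was used is not given in the sources used here.

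Time gave 2 differences past the limits. Non1 in starved females was 0.81 lower at 48 h than at 24 h on the log2 scale, against a limit of 0.77. Mat89Ba on sugar in males was 1.04 higher at 48 h than at 24 h, with log2 ratios of 0.25 and -0.78, which puts it past 2-fold, as were 0.511% of all genes. The low value at 24 h has no second clone to set beside it. Across the 9 adult differences computed for each gene, the limit was passed 4 times by Non1, 3 times by Mat89Ba, 1 time each by NHP2 and Nop56 and never by Fib, Nop60B or mod. All 3 for Mat89Ba rest on the same single value, that of males on sugar for 24 h. The share of all genes past these limits was not computed.

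The other pathway genes also stayed near their controls in adults. Their median over all 75 ran from -0.10 to 0.08. None of the 75 was 2-fold from the control in any adult group, in either direction. Of all genes, 0.0218% to 1.7% were 2-fold higher and 0.566% to 1.83% lower in these groups. The count of 0 is near those shares, so nothing is read from it. By role the medians ranged more widely, as for hoip, alone in its list, at -0.66 in females starved for 48 h. In females on sugar for 48 h the other nucleolar proteins had -0.26 and the exosome -0.19, and in females starved for 48 h RNA polymerase I had -0.23. The highest was 0.31 for hoip in males on sugar for 48 h, and among lists of more than 1 measured gene 0.14 for the large subunit path in females starved for 24 h. The large subunit gene CG4364 was the highest in its list by adult mean, 0.49, and CG13185 followed with 0.30, while Surf6 and CG6937 were lowest with -0.18 and -0.10. In the small subunit list kz and l(1)G0004 had 0.27 and 0.23, and CG4866 and CG3071 had -0.20 and -0.13. The exosome gene Rrp6 had 0.32 and Dis3 -0.17, and among RNA polymerase I genes Polr1B had 0.11 and Polr1F -0.28. In every adult group Non1 was above the highest of the 75, except in males on sugar for 48 h, where the highest was 0.56 against 0.47 for Non1.

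Across the 12 groups the 6 genes had like profiles, with Pearson r from 0.88 to 0.98 over their 15 pairs. That likeness is carried by the larval range, since over the 7 adult groups alone r ran from -0.54 to 0.77. The genes most like the median of the 6, by Pearson r over the 12 groups among genes whose ratio spanned at least 1 on the log2 scale, were CG8939, CG9799, CG12288, Non3 and rswl, all at about 0.99. mRpS31 and nclb also belonged to the 8 nearest. Of these, CG8939 and Non3 (related to yeast Rpf2) were already in the large subunit list and CG9799 in the small subunit list.

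The genes most like Non1 were Ip259 (r = 0.96), fmt (0.95), Ddx56 (0.95), CHES-1-like (0.94) and eIF3m (0.94), with Rab32 also among the 8 nearest. Ip259 had log2 ratios of 0.40 to 0.80 in females and 0.19 to 0.68 in males, lower than those of Non1, and -0.07 in larvae at 100 h. Ddx56 had 0.26 to 0.51 in the adult groups, -0.15 in larvae at 88 h and 0.18 at 100 h. Neither gene was in the lists by role used here, which may leave out assembly genes. Non1 is therefore set apart only from the genes listed. These r values describe 12 columns that share strain, array type and processing, and adult and larval columns form separate blocks, so they carry no p.

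**Figure D4:**
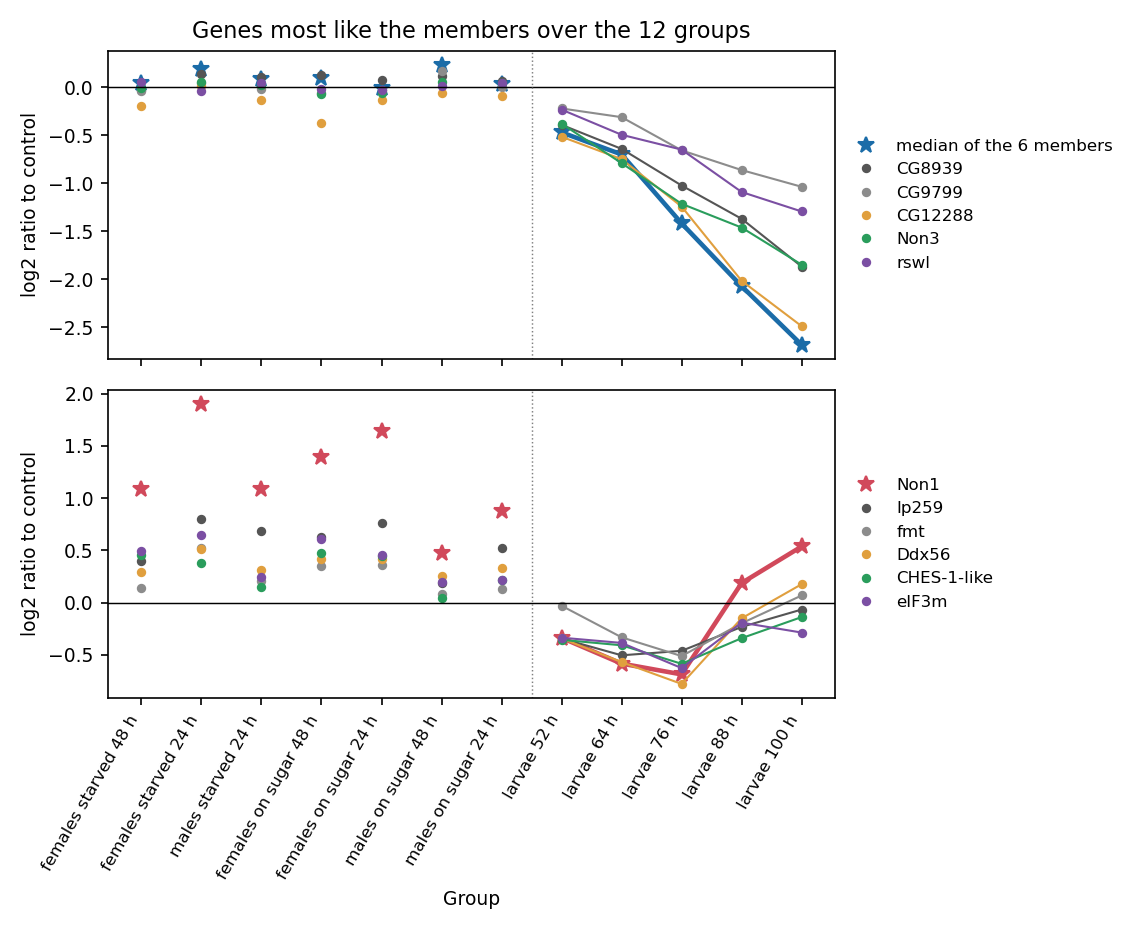
Log2 ratio (vertical axis) in the 12 groups (horizontal axis) of the 5 genes most like the median of the 6 genes and of the 5 most like Non1, each beside its target, drawn as stars (blue for the median, red for Non1). Adult values are points and larval values are joined in order of age. All 5 genes most like the median follow its course but reach a smaller size by 100 h. CG12288 comes nearest at -2.49, and CG9799 and rswl are smallest at -1.04 and -1.29.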

How the data were processed

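RNA of 63 2-channel spotted arrays was compared in 12 groups, taken from the labels. The deposited values were log2 ratios: the authors scanned each array 3 times and merged both spot copies and all repeat hybridisations into 1 normalised value, per the labels' descriptions. The base was checked, since 99.996% of the values were log2 of a linear ratio with 6 decimals (tolerance 0.05 of the last decimal), against 9.98% for natural log. For the normalisation, the background correction and the scan chosen, no description was found in the labels, and scanner intensities were not used here. Precision is limited by the number of arrays and by the merging, which leaves no replicate spread.

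Of 32448 spots, 24188 had a value, and 10148 clones with 1 gene symbol gave 9212 genes (9158 in all groups), with the median over clones per gene. Symbols came from the platform annotation, updated through RefSeq gene names. The planned limma fit was not run, because each group holds 1 value per gene. Genes were counted at 2-fold, with 1.5-fold, 3-fold and other settings as alternatives. The members and lists were chosen with earlier results of these data known. Named genes are the members, the 2 highest and 2 lowest of each list by adult and by larval mean, the 8 genes most like each profile (CG-numbered ones only among the first 3) and genes that overlap a member; a few other listed genes were named after their values were seen. List names that matched an unrelated gene were left out where found. The counting was tested on simulated data. Python 3.11.15, numpy 2.4.6, pandas 2.3.3 and matplotlib 3.10.9 were used.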

Additional observations from a re-analysis of the deposited data

How the results depend on the processing

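No paired analysis was possible because all arrays of a group share 1 merged value. For the same reason leaving out each replicate, another background correction or normalisation, a filter on dim spots and a block for slide were not run, and the promoter motif comparison was not run because no promoter sequence was used here. What the arrays' signal over background limits cannot be given from merged ratios. Of the values and counts that answer a comparison, 184 were classed as the same across the alternatives run and 15 as moved. The 184 include settings that could not move a value, such as the mean over clones, since each of the 7 genes has 1 clone. They also include values near 0 that changed sign, so the number does not measure robustness. No value past 2-fold changed sign, but the median of the 6, near 0 in adults, did in 4 of the 7 adult groups: to as low as -0.05 in females starved for 48 h when Fib, Nop60B or Mat89Ba was left out, to -0.003 in females on sugar for 48 h with the mean, to 0.04 in females on sugar for 24 h without Nop56, Fib or NHP2, and as given below in males on sugar for 24 h. The largest shift from centring on the median of all genes was 0.049 on the log2 scale.

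All but 2 of the moves came from the fold chosen. At 3-fold, the count of members higher was 0 in females starved for 48 h, males starved for 24 h and females on sugar for 48 h, and the count lower was 0 at 64 h and 1 at 76 h. At 1.5-fold, 1 member was lower and 1 higher in males on sugar for 24 h, and 2 were lower at 52 h and 5 at 64 h. The other assembly genes lower at 1.5-fold were 18, 39, 60 and 58 of 75 at 64, 76, 88 and 100 h. With the mean in place of the median of the 6, males on sugar for 24 h had -0.10, and Non1 lay 0.98 above it, where Mat89Ba is low. Of the 8 genes most like the median of the 6, Spearman's rho kept 1, adult groups alone 0 and larval groups alone 1. Of those most like Non1, 6, 0 and 0 were kept.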

Other observations

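Genes next to the members on the chromosome gave a local comparison. Mst89B, a gene named for male-specific transcripts, overlaps Mat89Ba in the annotation, and whether the clone of either detects RNA of the other was not tested. Its log2 ratios from 52 to 100 h were -0.30, 0.03, 0.04, 0.18 and 0.37, none near the -2.97 of Mat89Ba at 100 h. In males on sugar it had 0.39 at 48 h and 0.17 at 24 h, when Mat89Ba had 0.25 and -0.78.

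The nearest measured gene to NHP2 is gnu, a maternal regulator of the early embryonic cell cycle. It had log2 ratios of -0.53, -0.32, -0.49 and -0.40 in females starved for 48 h, starved for 24 h, on sugar for 48 h and on sugar for 24 h, and -0.12, 0.26 and 0.08 in males starved for 24 h, on sugar for 48 h and on sugar for 24 h. Helz, at nearly the same distance on the other side, had 0.44, 0.73, 0.77 and 0.12 in the same female groups and 0.07, -0.03 and 0.05 in the same male groups. In larvae gnu stayed between -0.07 and 0.30, unlike NHP2. One neighbour of Nop60B, mRpS17 of the mitochondrial ribosome, had -1.08 at 88 h and -1.68 at 100 h, while the other, ocm, had 0.09 and 0.04. In the annotation Nop60B shares bases with 7 small nucleolar RNA genes and Fib with 1, none of which was measured. Over the 14 nearest measured neighbours of the 7 genes, log2 ratios at 100 h ranged from -1.68 to 1.59.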
